A study of Homo sapiens with 10 samples.

Results

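Acetylcholine acts through nicotinic receptors, which are ion channels built from 5 protein subunits, and through muscarinic receptors, which signal through G proteins. RNA-seq values of 10 receptor genes, 6 nicotinic subunits and 4 muscarinic receptors, were taken by gene symbol from the 27992 symbols of the deposited expression table. The members were CHRNA3, CHRNA4, CHRNA5, CHRNA7, CHRNB2 and CHRNB4 on the nicotinic side and CHRM1, CHRM2, CHRM3 and CHRM4 on the muscarinic side, with 40 transcripts between them. All 10 entered the tests across genes, since each had a value above 0 in at least 2 libraries. They were chosen with earlier results of these data known, so counts over them describe the genes and are not independent evidence.

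The cells were SH-SY5Y, a human neuroblastoma line, stably transfected with linearized empty pcDNA3 plasmid (pcDNA3) or with pcDNA3 carrying the human (hsaFOXP2), chimpanzee (ptrFOXP2), Rhesus monkey (mmuFOXP2) or marmoset (cjaFOXP2) FOXP2 cDNA, isoform I. FOXP2 is a forkhead transcription factor, and the study asked how the human protein differs from those of the other primates in its effect on gene expression. Each of the 5 conditions had 2 libraries, replicates A and B, from separate rounds of transfection, and all cells, controls included, were grown under geneticin selection. Levels are given in BPKM, the bases mapped to a gene's exons scaled by exon length and by all bases mapped in the library, so that levels of different genes can be compared per length, and each gene's level is the mean over its transcripts.

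In the nervous system, CHRNA3 and CHRNB4 encode the core pair of subunits of the ganglionic nicotinic receptor, to which the accessory subunit CHRNA5 can be added, and the 3 genes lie side by side. CHRNA4 and CHRNB2 together form the most common receptor of the brain, and CHRNA7 forms channels of its own that let calcium pass. CHRM1 and CHRM3 couple to Gq proteins and phospholipase C, whereas CHRM2 and CHRM4 couple to Gi and Go proteins, which hold back adenylate cyclase. SH-SY5Y cells are widely used to study both receptor classes.

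Of 10 markers of noradrenergic neuroblastoma, 9 had a mean of at least 1 BPKM, while TH, the enzyme that starts catecholamine synthesis, was listed at 0 in 9 of 10 libraries. Markers of skeletal muscle, which carries its own nicotinic receptor, summed to between 0.231 and 0.543 BPKM, blood markers to at most 0.240 BPKM and epithelial markers to at most 0.489 BPKM. FOXP2 RNA was 0.00450 and 0 BPKM in the pcDNA3 libraries, 1.54 and 0.932 BPKM with hsaFOXP2, 2.09 and 21.8 BPKM with ptrFOXP2, 30.2 and 3.91 BPKM with mmuFOXP2, and 14.5 and 18.3 BPKM with cjaFOXP2 (replicates A and B). It was thus present in every FOXP2 transfectant, and the 2 lowest of these were the hsaFOXP2 libraries. From densitometry of Western blots, the study proposes that FOXP2 protein was about equal between human and non-human FOXP2 cells, so these RNA values do not stand for protein. The table holds no read counts. From the spacing of its lowest values, depth was between 0.988 and 1.26 times that of pcDNA3 replicate A. The p-values below measure the spread between separate transfections of 1 cell line. For hsaFOXP2 against non-human FOXP2 that spread also holds differences between the non-human cDNAs, which form 1 group. In such bulk samples fewer cells with a receptor and less receptor RNA per cell cannot be told apart.

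The upstream sequences of 4 members are shown because their RNA carried the patterns described below: CHRNA3 and CHRNB4, which were low with non-human FOXP2, and CHRM2 and CHRM3, which were high in 1 library. Each runs 5′ to 3′ on the gene's strand from 250 bases before to 50 bases after a RefSeq start (GRCh38.p14), and 8 of the 10 members had an entry. Capitals mark matches, on either strand, to GGGCGG, the GC box, or CAGCTG, an E-box.
CHRNA3 (chr15:78620947-78621246, minus strand): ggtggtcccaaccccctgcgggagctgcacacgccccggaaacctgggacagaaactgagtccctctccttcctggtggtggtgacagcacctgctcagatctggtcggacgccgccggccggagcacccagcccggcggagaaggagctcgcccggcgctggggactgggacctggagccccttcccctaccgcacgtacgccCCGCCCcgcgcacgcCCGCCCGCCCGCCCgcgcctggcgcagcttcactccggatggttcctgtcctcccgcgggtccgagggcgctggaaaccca
CHRNB4 (chr15:78641161-78641460, minus strand): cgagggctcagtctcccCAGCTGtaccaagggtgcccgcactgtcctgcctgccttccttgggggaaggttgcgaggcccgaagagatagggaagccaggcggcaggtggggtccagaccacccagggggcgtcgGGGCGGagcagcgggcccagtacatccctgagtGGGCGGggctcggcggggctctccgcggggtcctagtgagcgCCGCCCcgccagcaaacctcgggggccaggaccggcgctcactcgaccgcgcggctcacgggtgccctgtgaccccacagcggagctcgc
CHRM2 (chr7:136868402-136868701, plus strand): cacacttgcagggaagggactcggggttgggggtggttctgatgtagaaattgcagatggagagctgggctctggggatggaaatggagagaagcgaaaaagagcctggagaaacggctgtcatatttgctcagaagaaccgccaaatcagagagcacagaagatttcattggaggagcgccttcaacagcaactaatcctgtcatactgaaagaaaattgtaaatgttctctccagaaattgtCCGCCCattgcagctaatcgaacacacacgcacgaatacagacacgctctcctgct
CHRM3 (chr1:239386318-239386617, plus strand): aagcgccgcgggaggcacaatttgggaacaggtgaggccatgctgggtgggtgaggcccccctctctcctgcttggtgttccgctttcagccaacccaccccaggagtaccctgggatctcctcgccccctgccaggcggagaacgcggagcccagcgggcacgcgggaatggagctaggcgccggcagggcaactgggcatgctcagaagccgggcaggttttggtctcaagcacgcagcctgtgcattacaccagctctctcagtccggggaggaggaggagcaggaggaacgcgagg

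The 2 nicotinic windows were rich in G and C (72.7% each), against 66.0% for CHRM3 and 48.7% for CHRM2. GGGCGG occurred 4 times in CHRNA3, overlapping itself, 3 times in CHRNB4 and once in the CHRM2 window shown, the first of 3 for that gene. It stood in at least 1 window of 5 of the 8 members, and in 44.95% of all 35116 promoter windows of that length. CAGCTG was found in 2 of the 8 members and in 17.9% of all windows. The forkhead sequences TATTTAT and TGTTTAC, the first a known core of FOXP2 binding, were in no member's window, and in 4.93% and 3.42% of all windows. These are matches of letters in a short window.

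CHRNA5 and CHRNA3 were the most abundant receptor genes in these cells. CHRNA5 had a mean of 5.82 BPKM ± 1.36 (SD, n = 10 libraries) and exceeded CHRNA3 (3.43 ± 1.95 BPKM) in all 10 libraries. CHRM2 followed with 1.74 ± 2.50 BPKM, a mean raised by 1 library, and lay below CHRNA3 in 9 of 10 libraries. CHRNB2 (0.696 ± 0.369 BPKM), CHRM3 (0.633 ± 0.899 BPKM), CHRNA7 (0.566 ± 0.258 BPKM) and CHRNB4 (0.425 ± 0.302 BPKM) did not differ beyond their spread. CHRNB2 exceeded CHRM3 in 7 of 10 libraries, CHRM3 exceeded CHRNA7 in 4 and CHRNA7 exceeded CHRNB4 in 8.

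The remaining 3 members were scarce. CHRM4 had a mean of 0.0801 BPKM and ranged from 0.0286 to 0.125 BPKM, and CHRM1 had a mean of 0.0461 BPKM and was listed at 0 in 2 libraries. CHRNA4 was at most 0.00665 BPKM and listed at 0 in 4 libraries, although its partner CHRNB2 was measured in every library. The nicotinic members summed to between 7.73 and 19.98 BPKM per library, of which CHRNA5 made up between 40.9% and 68.5%. The muscarinic members summed to between 0.853 and 2.20 BPKM in 9 libraries and to 12.2 BPKM in hsaFOXP2 replicate A, and CHRM2 made up between 49.6% and 77.4% of that sum.

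**Figure D1:**
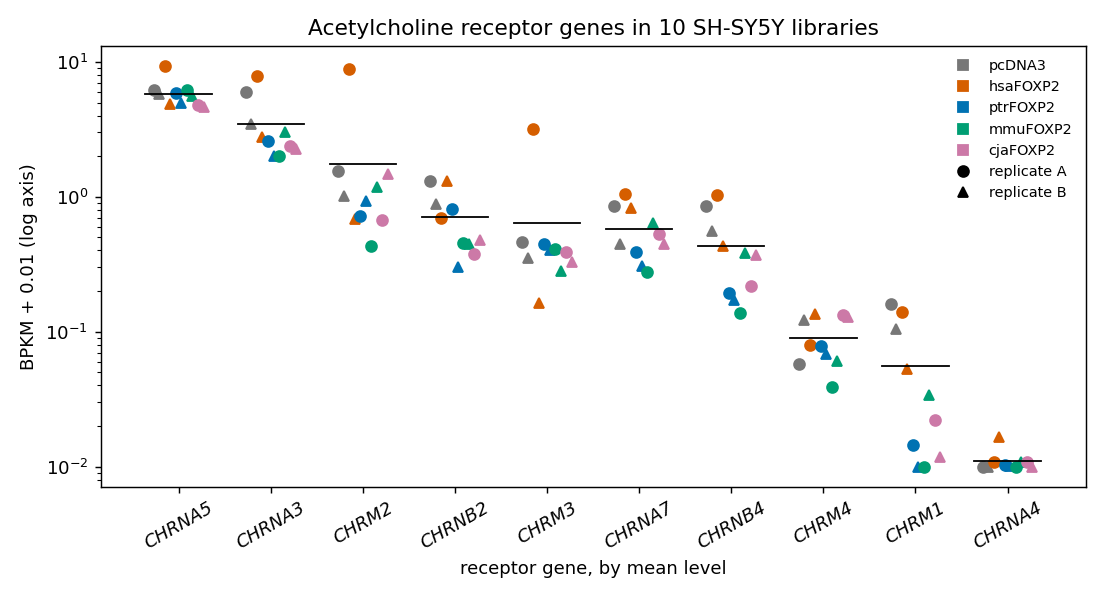
BPKM + 0.01 on a log axis of the 10 receptor genes, ordered by mean level, in 10 libraries (colour, condition; circle, replicate A; triangle, replicate B; line, mean of 10). CHRNA5 and CHRNA3 lie highest, CHRNA4 lies at the bottom, and hsaFOXP2 replicate A stands above all other libraries for CHRM2 and CHRM3.

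The first comparison asked whether human FOXP2 left receptor RNA at another level than the 3 non-human cDNAs did. CHRNB4, the ganglionic beta subunit, was at 1.03 and 0.425 BPKM with hsaFOXP2 (replicates A and B), and at 0.127 to 0.371 BPKM (median 0.195) in the 6 non-human FOXP2 libraries. Both hsaFOXP2 libraries thus lay above all 6 others. Its log2 fold change was 1.25 ± 0.38 (SE) on the log2(BPKM + 0.1) scale, a scale that understates changes of low genes, and it did not pass (unadjusted p = 0.0104, adjusted p = 0.896, limma with Benjamini-Hochberg adjustment over 21937 genes).

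CHRNA7, which forms homomeric channels, was at 1.04 and 0.811 BPKM with hsaFOXP2, while the non-human FOXP2 libraries were at 0.267 to 0.633 BPKM (median 0.408). By this mean over all its transcripts the groups did not overlap, though they did for its RefSeq transcripts alone, as given below. The log2 fold change was 1.01 ± 0.28 (SE) with adjusted p = 0.863 in limma. CHRM1, a Gq-coupled receptor, was at 0.131 and 0.0426 BPKM with hsaFOXP2, whereas those with non-human FOXP2 were at 0 to 0.0241 BPKM (median 0.00317). The groups again did not overlap, and CHRM1 had the smallest adjusted p of the members (log2 fold change 0.76 ± 0.17 SE, adjusted p = 0.551, limma). With at most 0.151 BPKM in any library, its values rest on few bases of sequence.

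CHRNA3, the ganglionic alpha subunit, was at 7.89 and 2.77 BPKM with hsaFOXP2, whereas those with non-human FOXP2 were at 2.00 to 3.03 BPKM (median 2.31). Replicate B lay inside the non-human range, and the log2 fold change of 0.97 ± 0.34 (SE) did not pass (adjusted p = 0.995, limma). CHRNB2, the main beta subunit of the brain, was at 0.692 and 1.29 BPKM with hsaFOXP2, whereas those with non-human FOXP2 were at 0.291 to 0.795 BPKM (median 0.441). Here replicate A lay inside the non-human range, and the log2 fold change was 0.94 ± 0.33 (SE) with adjusted p = 0.995 in limma.

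None of the 10 members passed in limma at an adjusted p of 0.05, a threshold that 0.00912% of all genes passed. At an unadjusted p under 0.05 there were 5 members (4.44% of all genes), all 5 higher with hsaFOXP2 (3.02% of all genes) and none lower (1.42%). These were CHRNA3, CHRNA7, CHRNB2, CHRNB4 and CHRM1. An unmoderated test on BPKM gave the same counts of 5 and 0, but with the scarce CHRNA4 among the 5 in place of CHRNA3. Both hsaFOXP2 libraries lay above all 6 non-human FOXP2 libraries for 4 members, CHRNB4, CHRNA7, CHRM1 and CHRNA4, and for 3.56% of all genes, and below them for none (2.1%). CHRNA4, at most 0.00665 BPKM, was the only member for which they lay above all 8 others (2.34% of all genes), and none lay below all 8 (1.7%). For these 4 the exact two-sided permutation p was 0.0714, the smallest that 2 libraries against 6 can give.

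All 10 members had a positive log2 fold change, with a median of 0.95, while 53.6% of all genes were positive and 46.4% negative, with a median of 0.01. This count rested on hsaFOXP2 replicate A. Without it, 7 of 10 were positive with a median of 0.31, and CHRNA5, CHRM2 and CHRM3 had log2 fold changes of -0.12, -0.27 and -0.88. CHRNA3 came down to 0.23, whereas CHRNA7 had 0.85, CHRNB4 had 0.70, CHRM1 had 0.42 and CHRNB2 had 1.35. Without hsaFOXP2 replicate B, CHRM3 (log2 fold change 2.82, adjusted p = 0.0118, limma) and CHRM1 (1.11, adjusted p = 0.0408, limma) passed, as did 40 of all genes (0.184%). In such a fit the remaining hsaFOXP2 library is assumed to vary like the others. The adjusted p of CHRM3 ranged from 0.0118 to 1 over its alternatives.

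**Figure D2:**
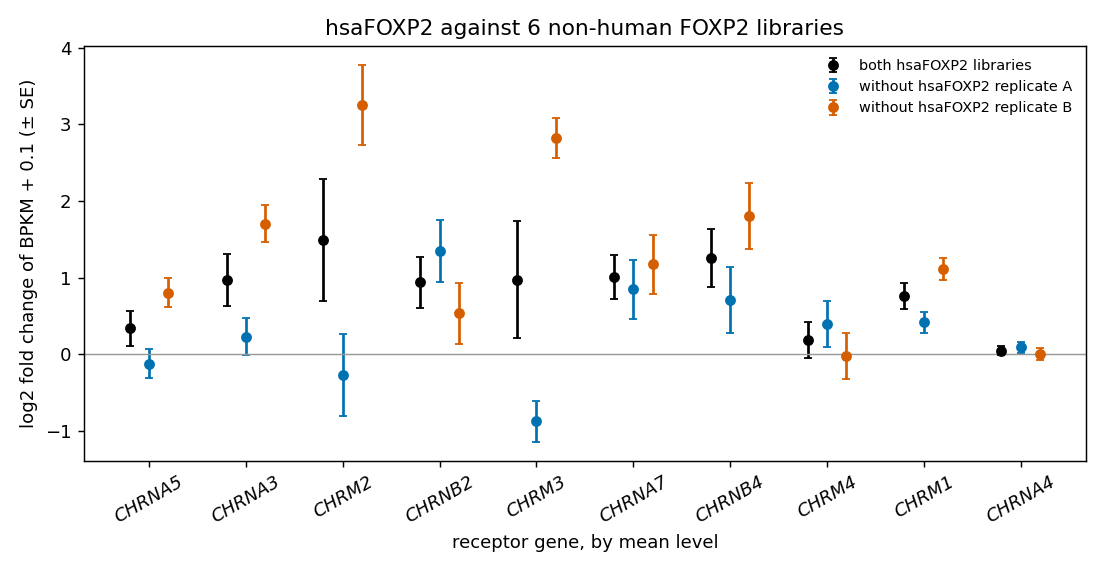
Log2 fold change of BPKM + 0.1 with hsaFOXP2 against the 6 non-human FOXP2 libraries (y axis, ± SE from limma) for each receptor gene (x axis), with both hsaFOXP2 libraries (black), without replicate A (blue) and without replicate B (orange). CHRM2 and CHRM3 change sign without replicate A, at -0.27 and -0.88, whereas CHRNA7, CHRNB2, CHRNB4 and CHRM1 stay above 0 in all 3 fits.

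The second question was how these genes stood in the empty-vector cells. CHRNB4 was at 0.846 and 0.547 BPKM with pcDNA3, above all 6 non-human FOXP2 libraries (at most 0.371 BPKM), as was CHRNA3 at 5.96 and 3.45 BPKM (at most 3.03 BPKM). CHRNB2 at 1.31 and 0.876 BPKM and CHRM1 at 0.151 and 0.0938 BPKM also lay above all 6, at most 0.795 and 0.0241 BPKM. CHRNA7, at 0.841 and 0.434 BPKM, overlapped the non-human range. Both pcDNA3 libraries thus lay above all 6 non-human FOXP2 libraries for 4 of 10 members, and for 3.51% of all genes.

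Between hsaFOXP2 and pcDNA3 none of these genes was at an unadjusted p under 0.05 in limma. That does not show that their levels were alike. The log2 fold changes were 0.05 ± 0.48 (SE) for CHRNA3, -0.03 ± 0.48 for CHRNB4, -0.16 ± 0.44 for CHRNB2 and -0.28 ± 0.24 for CHRM1. Side by side, CHRNB4 stood at -1.52 with ptrFOXP2, -1.26 with mmuFOXP2 and -1.06 with cjaFOXP2, each ± 0.48 (SE). CHRM1 stood at -1.11, -0.99 and -1.05, each ± 0.24 (SE), and CHRNB2 at -0.99, -1.12 and -1.19, each ± 0.44 (SE). The 4 contrasts share the same 2 pcDNA3 libraries. No member passed in any of them in limma, where between 0.0045% and 0.00899% of all genes were called. At an unadjusted p under 0.05, no member was different with hsaFOXP2 (4.77% of genes), 2 with ptrFOXP2 (3.38%), 3 with mmuFOXP2 (3.11%) and 2 with cjaFOXP2 (11%). Without hsaFOXP2 replicate B, CHRM3 passed between hsaFOXP2 and pcDNA3, 1 of the 10 members, as did 72 of all genes (0.326%), and no other left-out library gave a call of a member here.

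When the 4 FOXP2 conditions were averaged, 8 of 10 members had a negative log2 fold change against pcDNA3, with a median of -0.20, while 57.3% of all genes were negative and 42.7% positive, with a median of -0.03. None was called in limma (0.0045% of all genes). CHRM1 (-0.86 ± 0.19 SE, adjusted p = 0.44, limma), CHRNB4 (-0.97 ± 0.38 SE) and CHRNB2 (-0.86 ± 0.34 SE) were at an unadjusted p under 0.05, as were 3.57% of all genes, 2.81% lower and 0.764% higher. The number at that level ranged from 1 to 4 when a library was left out, and was 1 without pcDNA3 replicate A, without pcDNA3 replicate B and without cjaFOXP2 replicate A. No member had both pcDNA3 libraries above all 8 FOXP2-transfected libraries, as 1.81% of all genes had, and none had both below (0.576%). In the test of any difference among the 5 conditions, none passed in limma (0.0135% of all genes), and CHRM1 and CHRNB4 were at an unadjusted p under 0.05, as were 8.75% of all genes.

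**Figure D3:**
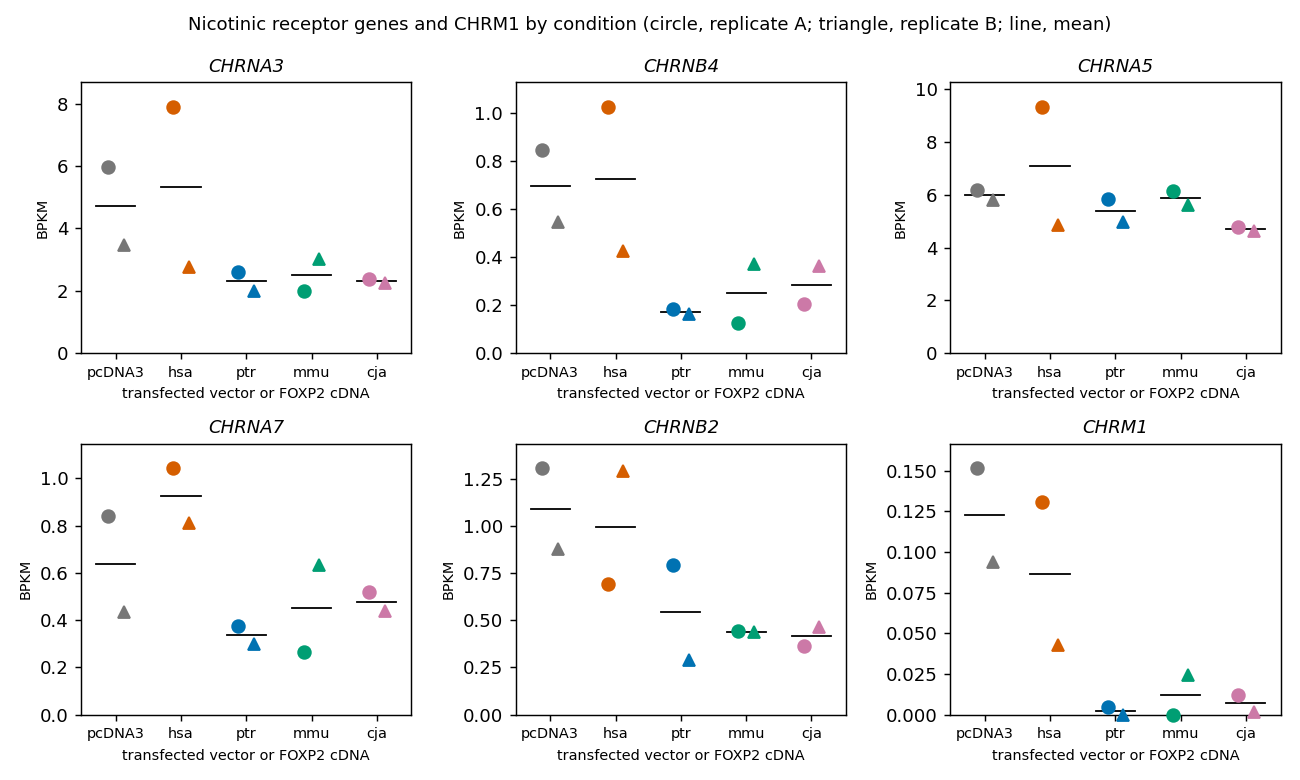
BPKM (y axis) of 5 nicotinic subunit genes and CHRM1 by transfected vector or cDNA (x axis; circle, replicate A; triangle, replicate B; line, mean of 2). For CHRNB4 and CHRM1 all pcDNA3 and hsaFOXP2 libraries lie above the 6 non-human FOXP2 libraries, which reach at most 0.371 and 0.0241 BPKM.

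The muscarinic genes CHRM2 and CHRM3 followed another pattern, in which 1 library stood apart. CHRM2, the Gi-coupled receptor known for slowing the heart, was at 8.79 BPKM in hsaFOXP2 replicate A, and at 0.423 to 1.55 BPKM (median 0.927) in the 9 others. hsaFOXP2 replicate B was among the lower of these at 0.674 BPKM. CHRM3, the Gq-coupled receptor of glands and smooth muscle, was at 3.18 BPKM in hsaFOXP2 replicate A and at 0.152 to 0.453 BPKM (median 0.382) in the 9 others, with hsaFOXP2 replicate B lowest. Replicate A was thus 5.68-fold above the next library for CHRM2 and 7.02-fold for CHRM3. A library more than 2-fold above all 9 others, on BPKM + 0.1, was seen for hsaFOXP2 replicate A in 2 of 10 members and in 0.463% of all genes.

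This library was also the highest of the 10 for CHRNA3, CHRNA5, CHRNA7 and CHRNB4, so that 6 of 10 members peaked there, against 17.6% of all genes. Among the 8 FOXP2-transfected libraries it was high and set apart by Dixon's criterion for 6 of the 9 members examined, CHRNA4 left out, and for 2.37% of all genes, and among the 6 non-human FOXP2 libraries ptrFOXP2 replicate A was so for CHRNB2 (0.832% of all genes). CHRNA5 was at 9.32 BPKM in hsaFOXP2 replicate A and at 4.63 to 6.19 BPKM in the 9 others. Between hsaFOXP2 and non-human FOXP2, the log2 fold changes of CHRM2 (1.49 ± 0.80 SE), CHRM3 (0.97 ± 0.76 SE) and CHRNA5 (0.34 ± 0.23 SE) did not pass (adjusted p = 1 for each, limma). Values in replicate A and replicate B differed for CHRM2 and CHRM3 by more than the hsaFOXP2 group differed from the others. CHRM4 showed no such peak, at 0.0690 and 0.125 BPKM with hsaFOXP2, while the non-human FOXP2 libraries ranged from 0.0286 to 0.124 BPKM.

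The cell type markers were checked in this library. Noradrenergic markers summed to 390 BPKM there and to 199 to 401 BPKM over all libraries, and glial markers summed to 1.30 BPKM, the lowest of the 10. Within the noradrenergic list, PHOX2A was at 101 BPKM, and at most 60.3 BPKM elsewhere. Mesenchymal markers summed to 2381 BPKM, within the range of the others. Among these, FN1 was lowest in this library, at 185 BPKM against 380 to 568 BPKM elsewhere, while PRRX1, VIM and SNAI2 lay within the range of the others. The depth of this library was 1.003 times that of pcDNA3 replicate A, within the range of the others. The part of markers and depth in the receptor values was not tested.

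**Figure D4:**
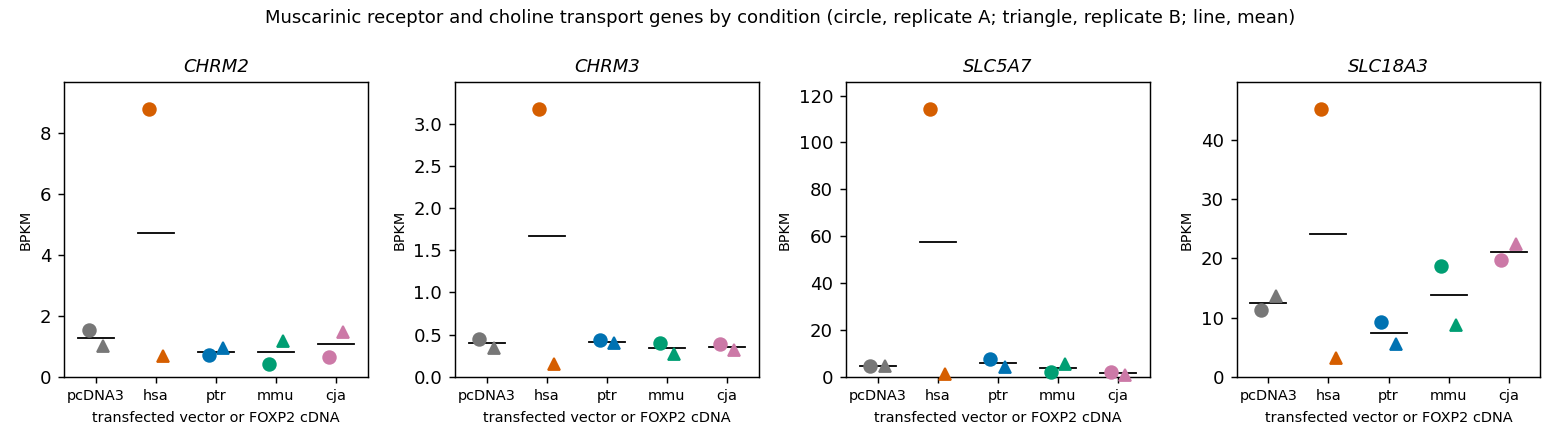
BPKM (y axis) of CHRM2, CHRM3, SLC5A7 and SLC18A3 by transfected vector or cDNA (x axis; circle, replicate A; triangle, replicate B; line, mean of 2). hsaFOXP2 replicate A stands alone at 8.79, 3.18, 114 and 45.3 BPKM, and hsaFOXP2 replicate B is lowest for CHRM3 and SLC18A3.

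Of 5 genes of acetylcholine synthesis and transport, 2 peaked in hsaFOXP2 replicate A. SLC5A7, the choline transporter of cholinergic terminals, was at 114 BPKM in it and at 0.894 to 7.41 BPKM in the 9 others. SLC18A3, which loads acetylcholine into vesicles, was at 45.3 BPKM in it and at 3.07 to 22.5 BPKM in the others, with hsaFOXP2 replicate B lowest. The broadly expressed choline transporter SLC44A1 went the other way, at 17.4 BPKM in replicate A and 22.9 to 34.0 BPKM elsewhere, and CHKA, which phosphorylates choline, lay between 2.58 and 3.99 BPKM throughout. CHAT, the enzyme that makes acetylcholine, named here after its values were seen, was low, at 0.0202 to 0.3602 BPKM, and highest in cjaFOXP2 replicate B. It came next in hsaFOXP2 replicate A, at 0.347 BPKM, against 0.0387 BPKM in hsaFOXP2 replicate B. Of the 5 genes of this list, 2 had a positive log2 fold change between hsaFOXP2 and non-human FOXP2, the median was -0.07, and none passed in limma.

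LYPD1, a membrane-anchored protein that dampens nicotinic receptors, was at 21.5 BPKM in hsaFOXP2 replicate A and at 2.29 to 10.2 BPKM in the 9 others. Its relative LYPD6B, named after its values were seen, was lowest in that library, at 0.925 BPKM against 2.22 to 8.79 BPKM. LYPD1 was 1 of 8 genes of receptor assembly and regulation, of which 4 were positive with a median of 0.04, and none passed in limma. The others with the highest levels, TMEM35, an assembly chaperone of CHRNA7 also known as NACHO (7.53 to 13.2 BPKM), LYPD6 (7.52 to 11.8 BPKM) and UBXN2A (6.46 to 10.6 BPKM), had no library that far from the others. RIC3, another chaperone, named after its values were seen, was at 0.182 and 0.170 BPKM with pcDNA3. It was at 0.0560 to 0.141 BPKM in the 8 FOXP2-transfected libraries. Both pcDNA3 libraries thus lay above all 8, as they did for 1.81% of all genes. The exact two-sided permutation p was 0.0444, the smallest that 8 libraries against 2 can give, so every gene so separated has it. Its log2 fold change of -0.48 ± 0.14 (SE) did not pass over all genes (adjusted p = 0.794, limma).

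Of the 4 genes of acetylcholine breakdown and anchoring, 3 were positive between hsaFOXP2 and non-human FOXP2 (median log2 fold change 0.41) and 3 were negative between FOXP2 and pcDNA3 (median -0.46), and none passed in limma. PRIMA1, which anchors cholinesterase in the membrane, was at 0.744 and 0.329 BPKM with pcDNA3, 0.102 and 0.199 BPKM with hsaFOXP2, and the non-human FOXP2 libraries ranged from 0.0122 to 0.159 BPKM. Both pcDNA3 libraries lay above all 8 others, as they did for 1.81% of all genes (log2 fold change of FOXP2 against pcDNA3 -1.78 ± 0.34 SE, adjusted p = 0.386, limma). BCHE, butyrylcholinesterase, was at 0.338 and 0.0690 BPKM with pcDNA3 and at 0.173 and 0.0775 BPKM with hsaFOXP2. Both hsaFOXP2 libraries lay above the non-human FOXP2 libraries at 0 to 0.0625 BPKM, as they did for 3.56% of all genes. ACHE, the main enzyme that breaks down acetylcholine, ranged from 1.45 to 4.37 BPKM with overlapping groups, as did its collagen tail COLQ at 0.0669 to 0.490 BPKM.

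Downstream of the muscarinic receptors, 18 genes were examined, none of which passed in limma in the comparisons of hsaFOXP2 with non-human FOXP2, of FOXP2 with pcDNA3 or of the rounds. Of these, 11 had a positive log2 fold change between hsaFOXP2 and non-human FOXP2, and the median was 0.06. RGS4, which shortens Gq and Gi signals, was the most abundant at 62.7 to 231 BPKM, followed by the inhibitory G protein subunits GNAI2 (87.4 to 112 BPKM), GNAI3 (16.9 to 26.5 BPKM) and GNAI1 (12.6 to 25.4 BPKM). Named after its values were seen, GNAO1, the Go alpha subunit, was at 0.557 and 0.176 BPKM with pcDNA3, 0.0994 and 0.191 BPKM with hsaFOXP2, and in the non-human FOXP2 libraries at 0.0186 to 0.110 BPKM. Its log2 fold change of FOXP2 against pcDNA3 was -1.40 ± 0.34 (SE), with adjusted p = 0.531 in limma. KCNQ5, a potassium channel also named after its values were seen, went another way. It was at 6.13 and 6.69 BPKM with hsaFOXP2, below all 6 non-human FOXP2 libraries at 7.47 to 11.2 BPKM, as were 2.1% of all genes.

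Of the other receptor genes, 8 were examined. CHRNB1, a subunit of the muscle receptor, had a mean of 2.41 BPKM and CHRNE, another, 0.838 BPKM, and CHRNA10 had 0.368 BPKM and CHRNA1 0.0627 BPKM. Of the 8, 2 had a positive log2 fold change between hsaFOXP2 and non-human FOXP2, the median was -0.08, and none passed in limma. The scarce CHRNA9, named after its values were seen, was at 0.0134 and 0.0128 BPKM with hsaFOXP2. Both lay below the non-human FOXP2 libraries at 0.0263 to 0.0949 BPKM, as they did for 2.1% of all genes. Of 5 genes near the CHRNA5, CHRNA3 and CHRNB4 cluster all 5 were positive in that comparison, with a median of 0.11, and none passed. PSMA4, a proteasome subunit, ranged from 32.1 to 52.9 BPKM and IREB2, an iron regulator, from 9.12 to 11.5 BPKM. MORF4L1, a chromatin protein, ranged from 27.6 to 39.3 BPKM, and ADAMTS7, a secreted protease, from 5.83 to 12.5 BPKM. Highest over lowest was 1.26 for IREB2, 1.43 for MORF4L1, 1.65 for PSMA4 and 2.14 for ADAMTS7. In the cluster it was 2.01 for CHRNA5, 3.95 for CHRNA3 and 8.10 for CHRNB4, whose lowest value was 0.127 BPKM.

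Within the cluster, the transcripts of CHRNA3 were compared with its neighbours. The 3 CHRNA3 transcripts with a RefSeq mRNA ID had mean levels of 5.44 and 3.02 BPKM with pcDNA3, 6.91 and 2.18 BPKM with hsaFOXP2, and the non-human FOXP2 libraries ranged from 1.08 to 2.36 BPKM. Their ratio to CHRNB4 stayed between 4.503 and 8.86 in the 10 libraries, whereas their ratio to CHRNA5 ran from 0.176 in mmuFOXP2 replicate A to 0.878 in pcDNA3 replicate A. For CHRNA5 itself, the non-human FOXP2 (4.63 to 6.16 BPKM) and pcDNA3 libraries (6.19 and 5.80 BPKM) overlapped. The fourth CHRNA3 transcript, which has no RefSeq ID, was higher, at 4.08 to 7.54 BPKM in 9 libraries and 10.9 BPKM in hsaFOXP2 replicate A. In GENCODE 44 on GRCh38, CHRNA3 and CHRNA5 share 198 exonic bases on opposite strands of chromosome 15. The sources used here do not state whether counting used strand, and without it reads there cannot be told apart. With the RefSeq transcripts alone, the log2 fold change of CHRNA3 between hsaFOXP2 and non-human FOXP2 was 1.28.

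CHRNA7 shares exons with CHRFAM7A, a human fusion gene that carries a partial copy, so reads may be split between them. The 2 CHRNA7 transcripts with a RefSeq ID kept a ratio of 0.821 to 1.05 to CHRFAM7A in all 10 libraries. Their mean in hsaFOXP2 replicate B (1.09 BPKM) lay below that in cjaFOXP2 replicate A (1.13 BPKM), so for them hsaFOXP2 and non-human FOXP2 overlapped. Another 4 CHRNA7 transcripts without such an ID, singled out after their values were seen, were at 0.700 and 0.131 BPKM with pcDNA3, 0.793 and 0.591 BPKM with hsaFOXP2, and the non-human FOXP2 libraries ranged from 0.0456 to 0.352 BPKM. Their ratio to the RefSeq transcripts ran from 0.0704 to 0.703. The log2 fold change between hsaFOXP2 and non-human FOXP2 was 1.62 for these 4 and 0.69 for the RefSeq transcripts, so the value of CHRNA7 is uncertain.

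FOXP2 RNA differed widely among the 8 FOXP2-transfected libraries, and receptor levels were compared with this RNA, not with FOXP2 protein. Across these 8 libraries, on the log2(BPKM + 0.1) scale, CHRNB2 had Pearson's r = -0.85 (exact permutation p = 0.00375, adjusted p = 0.909 over 21936 genes) and Spearman's rho = -0.71 (exact permutation p = 0.0576, adjusted p = 1). CHRNA7 had r = -0.77 (exact permutation p = 0.0319, adjusted p = 1) and rho = -0.83 (exact permutation p = 0.0154, adjusted p = 1). CHRNA3 had r = -0.64 (exact permutation p = 0.0296, adjusted p = 1) and rho = -0.88 (exact permutation p = 0.00724, adjusted p = 1), and CHRNB4 had r = -0.64 (exact permutation p = 0.0735, adjusted p = 1) and rho = -0.81 (exact permutation p = 0.0218, adjusted p = 1). CHRNA5 (r = -0.38, exact permutation p = 0.388), CHRM2 (r = -0.38, exact permutation p = 0.403) and CHRM3 (r = -0.21, exact permutation p = 0.774) did not reach an unadjusted p of 0.05.

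No relation passed after adjustment, as 0% of all genes did. Of the 7 members with a mean of at least 0.1 BPKM, 7 had a negative r (50.6% of all genes) and 3 were negative at an unadjusted p under 0.05 (2.24% of all genes). The 2 libraries farthest from the median FOXP2 level were those of hsaFOXP2, so human cDNA and low FOXP2 RNA cannot be told apart over the 8 libraries. In the other 6, r was -0.85 for CHRNA3 (exact permutation p = 0.0292, adjusted p = 1), -0.72 for CHRNB2 (exact permutation p = 0.0903, adjusted p = 1), -0.49 for CHRNA7 (exact permutation p = 0.304) and -0.32 for CHRNB4 (exact permutation p = 0.543). The relation of CHRNB2, CHRNA7 and CHRNB4 with FOXP2 RNA thus rested in part on the hsaFOXP2 libraries. Centred within each round of transfection, r was -0.85 for CHRNB2, -0.77 for CHRNA7, -0.67 for CHRNA3 and -0.64 for CHRNB4. The pcDNA3 libraries, left out here for their near absence of FOXP2 RNA, were high for CHRNB2, CHRNB4 and CHRNA3.

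**Figure D5:**
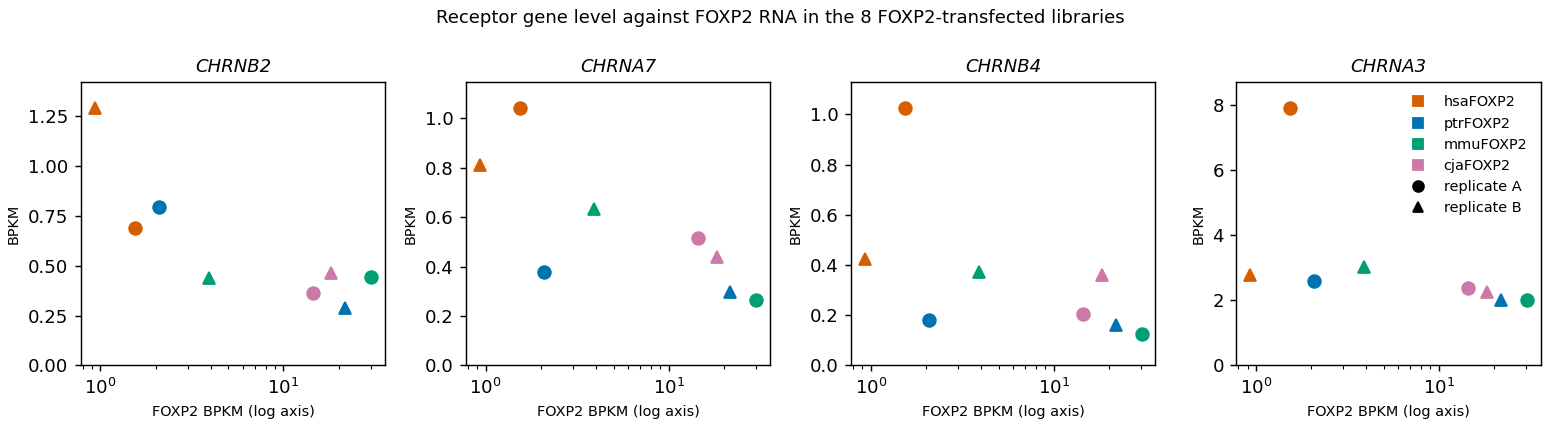
BPKM of CHRNB2, CHRNA7, CHRNB4 and CHRNA3 (y axes) against FOXP2 BPKM (x axis, log scale) in the 8 FOXP2-transfected libraries (colour, cDNA; circle, replicate A; triangle, replicate B). The hsaFOXP2 libraries at 1.54 and 0.932 FOXP2 BPKM hold the highest value in each plot.

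The rounds of transfection were compared over the 5 conditions. CHRNA5 was lower in replicate B in 5 of 5 conditions, from 9.32 to 4.86 BPKM with hsaFOXP2 and from 4.78 to 4.63 BPKM with cjaFOXP2. CHRM3 was also lower in 5 of 5, from 3.18 to 0.152 BPKM with hsaFOXP2 and from 0.453 to 0.340 BPKM with pcDNA3. These 2 of 10 members compare with 2.89% of all genes lower in all 5 conditions, and no member was higher in all 5 (6.34% of all genes). The log2 differences of B against A were -0.28 ± 0.14 (SE) for CHRNA5 (adjusted p = 0.472, limma) and -0.96 ± 0.54 (SE) for CHRM3 (adjusted p = 0.492, limma), each with an exact two-sided permutation p of 0.0625, the smallest that 5 pairs can give. No member was called in limma, as 0% of all genes were, and none was at an unadjusted p under 0.05 (11% of all genes).

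As a description, the genes whose pattern over the 10 libraries was most like that of each member with a mean of at least 1 BPKM were found among 13412 such genes. CHRNA3 was most like ELAVL4, a neuronal RNA-binding protein and 1 of the noradrenergic markers above (r = 0.97), GATA2, a transcription factor (r = 0.95), and RET, a receptor tyrosine kinase (r = 0.95). Without hsaFOXP2 replicate A these were 0.94, 0.94 and 0.93. CHRNA5 was most like TMEM108 (r = 0.97), AKAP6 (r = 0.96) and WBSCR22 (r = 0.96), which were 0.94, 0.87 and 0.89 without that library. CHRM2 was most like TSPAN8 (r = 0.92), EGLN3 (r = 0.90) and CYTH3 (r = 0.89), which were 0.66, 0.59 and 0.60 without it. The libraries are the same throughout, and these values carry no test.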

How the data were processed

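Poly(A) RNA of 10 libraries was sequenced as paired reads. The authors filtered reads, aligned them with STAR (version not given in the sources used here) to hg19, a build also named in the submitters' processing notes, summed the bases on the exons of each UCSC transcript, and deposited them as BPKM, an RPKM computed on bases, for 80922 transcripts. Since the depth is unknown, values carry no counting interval, and a 0 is given as listed. Relative depth rests on steps between low values, a rough estimate.

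The mean over transcripts per symbol was computed, leaving out 2 transcripts of unknown symbol. limma 3.58.1 (R 4.3.3, trend and robust) was fitted to log2(BPKM + 0.1) of genes above 0 in at least 2 libraries, 21937 for hsaFOXP2 against non-human FOXP2 and 22238 in the fit of 5 conditions, with Benjamini-Hochberg adjustment over all genes and a threshold of 0.05. The fit was also run on simulated data, with independent libraries and the same change in each library of a group. Such data hold no single library that stands apart, as hsaFOXP2 replicate A did here, so they do not show how the fit handles it. Single values were compared by exact permutation tests, and relations with FOXP2 RNA over all 40320 pairings, adjusted over all genes and not over the members as first planned. Tests ran in scipy 1.17.1, with pandas 2.3.3, numpy 2.4.6 and Python 3.11.15, and plots were drawn with matplotlib 3.10.9. Promoter windows came from RefSeq (GRCh38.p14).

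The members, lists and tests were chosen with earlier results of these data known. Named genes were the members, FOXP2, CHRFAM7A, up to 4 genes of each list with the highest mean, any that passed a test, and the 3 genes most like each member of at least 1 BPKM; others are marked. The labels tie the letters A and B to rounds of transfection, so a fit with the letter as a replicate block was run. For 5 of the 10 pairs of conditions the correlation of their B minus A differences exceeded 0.1 (range -0.19 to 0.37). The remaining alternatives were pseudocounts of 1 and 0.01, no filter, a mean of at least 1 BPKM, sums or the highest transcript, median-ratio scaling, an unmoderated test on BPKM, a fit of 10 libraries and leaving out each replicate. Those chosen after seeing the data were the transcript classes of CHRNA3 and CHRNA7, single libraries against the non-human range, and the test among 5 conditions without each replicate. Some genes of the lists are not reported here by name.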

Additional observations from a re-analysis of the deposited data

Results flagged for a closer look

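Among the 8 FOXP2-transfected libraries, hsaFOXP2 replicate A was separated from the nearest library by more of the whole range than Dixon's 95% critical value for 8 samples allows, for 6 members. The levels there were 7.89 BPKM for CHRNA3, 9.32 BPKM for CHRNA5, 1.03 BPKM for CHRNB4, 0.131 BPKM for CHRM1, 8.79 BPKM for CHRM2 and 3.18 BPKM for CHRM3. The gap made up 0.906 of the range for CHRM3 and 0.874 for CHRM2. Among the 6 non-human FOXP2 libraries, ptrFOXP2 replicate A was separated in the same way for CHRNB2, at 0.795 BPKM. The nominal rate of this criterion is about 1 in 20 groups, and 7 of the 18 examined were separated. The groups share genes and libraries, and the members were chosen with earlier results known. The nominal rate therefore does not say how often chance would give such a count. Over all genes, hsaFOXP2 replicate A was separated in this way for 2.37% and ptrFOXP2 replicate A for 0.832%, and hsaFOXP2 replicate A was the highest of the 10 libraries for 17.6%.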

How the results depend on the processing

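No member was called in any alternative with all libraries present, and when 1 library was left out 0 to 2 members were called between hsaFOXP2 and non-human FOXP2, and 0 to 1 between a FOXP2 cDNA and pcDNA3, each time without hsaFOXP2 replicate B. Between hsaFOXP2 and non-human FOXP2, 4 of 159 values of the members changed sign. With 1 library left out, log2 fold changes ranged from -0.27 to 3.25 for CHRM2, -0.88 to 2.82 for CHRM3, -0.12 to 0.80 for CHRNA5 and -0.018 to 0.39 for CHRM4, with the lowest value without hsaFOXP2 replicate A, or for CHRM4 without replicate B. Between FOXP2 and pcDNA3, where 13 of 156 changed sign, they ranged from -0.60 to 0.28 for CHRM2, -0.31 to 0.61 for CHRM3, -0.26 to 0.26 for CHRM4, -0.20 to 0.027 for CHRNA5 and -0.64 to 0.18 for CHRNA7. CHRM4 was at 0.011 there with median-ratio scaling and at 0.00022 with a pseudocount of 1. Between rounds B and A, where 7 of 111 changed sign, CHRM2 was at 0.53 and CHRNB4 at 0.25 without the hsaFOXP2 pair, CHRNA7 at 0.055 and CHRNB4 at 0.11 without the pcDNA3 pair, and CHRNB2 at 0.14 without the ptrFOXP2 pair. CHRNB4 was at 0.044 with a pseudocount of 0.01 and at 0.021 with sums over transcripts. The r of CHRM3 with FOXP2 RNA was 0.10 in the 6 non-human FOXP2 libraries. Other than where libraries were left out, the cause was not tested.

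With the replicate block, 5 members were at an unadjusted p under 0.05 between hsaFOXP2 and non-human FOXP2, as without it, and the smallest adjusted p was 0.688 in place of 0.551 (limma). The block changed no call of a member. In the test among the 5 conditions 1 member was at that level with the block, and 2 without. Over all genes, between 1 and 40 were called between hsaFOXP2 and non-human FOXP2 when 1 library was left out and between 1 and 12 in the other alternatives. Between FOXP2 and pcDNA3 these ranges were 1 to 8 and 0 to 2, and between hsaFOXP2 and pcDNA3 they were 0 to 72 and 1 to 4. They were 0 to 42 and 0 to 5 in the test among the 5 conditions, and 0 to 1 in both between the rounds. With 2 libraries a condition and levels under 0.2 BPKM, the data limit what can be said of CHRM1, CHRM4 and CHRNA4.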

Other observations

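Taken alone, hsaFOXP2 replicate A lay above all 6 non-human FOXP2 libraries for 8 of 10 members and 22.3% of all genes, and hsaFOXP2 replicate B for 6 members and 17.2% of all genes. The members above in replicate B were CHRNA4, CHRNA7, CHRNB2, CHRNB4, CHRM1 and CHRM4. pcDNA3 replicate A did so for 8 members and 19.1% of all genes, and pcDNA3 replicate B for 4 members and 9.09% of all genes, CHRNA3, CHRNB2, CHRNB4 and CHRM1. CHRNB4 and CHRM1 were above the non-human range in each of these 4 libraries. The ratio of the muscarinic to the nicotinic sum was 0.609 in hsaFOXP2 replicate A and between 0.0948 and 0.235 in the 9 other libraries.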
